A study of Mus musculus with 2 samples.

Results

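The 10 genes described here belong to the circadian clock and were taken by symbol from the 24346 genes listed for each library: Arntl, Npas2, Nr1d1, Nr1d2, Per2, Per3, Cry1, Dbp, Tef and Ciart. All 10 were found. RNA-seq was performed on the whole omentum, the abdominal fat sheet that carries milky spots, 5 days after injection of diphtheria toxin (DT). The WT and the Postn-DTR genotype gave 1 library each. Postn-DTR mice are heterozygous for a DT receptor cassette placed in the first coding exon of Postn, on a C57BL/6 background, and both groups were given DT. The receptor was meant for Aldh1a2+ fibroblastic reticular cells (FRCs), but Postn is also used by mesenchymal cells of other organs, so cells outside the omentum could also be killed. Age, sex, the number of mice behind a library, and the hour of collection are not given in the sources used here.

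With 1 library per genotype there was no spread between replicates and no test, and every difference below is a difference between these 2 libraries. Hour of collection and genotype cannot be told apart. Levels are given in FPKM (fragments per kilobase of transcript, relative to the mapped total), as deposited. A change is log2(FPKM + 1) in Postn-DTR less that in WT, a scale that compresses differences at low FPKM, and a gene was counted as higher or lower when the change reached 2-fold. Folds quoted for single genes are ratios of FPKM without the pseudocount. Their 95% intervals rest on read numbers estimated from the FPKM and the transcript lengths, so they are approximate and cover counting error only.

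The clock is a feedback loop of transcription in nearly every mouse cell. BMAL1 (encoded by Arntl) pairs with CLOCK or NPAS2 and binds E-boxes, and so drives the genes of its own repressors, PER and CRY, of CIART, of the nuclear receptors REV-ERBα (Nr1d1) and REV-ERBβ (Nr1d2), and of output factors such as DBP and TEF. The REV-ERBs act through ROR response elements (ROREs) to repress Arntl, Npas2 and Cry1, and DBP and TEF act through D-boxes. In peripheral tissues of mice, adipose tissue included, transcripts of Nr1d1 and Dbp usually peak in the light phase, Per3, Per2, Tef and Nr1d2 around its end, Cry1 in the dark phase, and Npas2 and Arntl near its end.

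Per2, Ciart and Cry1 were at least 2-fold higher in the Postn-DTR library. They were 3 of the 10 clock genes, against 3.88% of all 13127 genes compared, namely those whose FPKM averaged 1 or more over both libraries. None of the 10 was at least 2-fold lower, against 3.12% of all genes. The 10 genes were chosen with earlier results of these data known, so these shares are descriptions only. The median change of the 10 genes was 0.46, and that of all genes compared was 0.02. The members did not share a direction, since 7 were higher and 3 were lower, against 6811 higher and 6316 lower among all genes. Changes of the 10 ran from -0.50 to 1.63. Changes of all genes had their 5th percentile at -0.79 and their 95th at 0.87. Scaling mattered. Summed over all genes, FPKM was 542190 in WT and 671882 in Postn-DTR, of which pancreatic acinar genes held 12357 and 21.6. With pancreatic acinar genes left out and the libraries brought to equal totals, the median change of all genes became -0.28, a shift mostly due to the totals. The median change of the clock genes was then 0.14. The clock genes were 5 higher and 5 lower, against 2981 higher and 10123 lower among all genes. Per2 alone stayed at least 2-fold higher, against 2.27% of all genes. That same setting turned the share of higher genes among all changed genes from 55.4% to 28.7%.

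**Figure D1:**
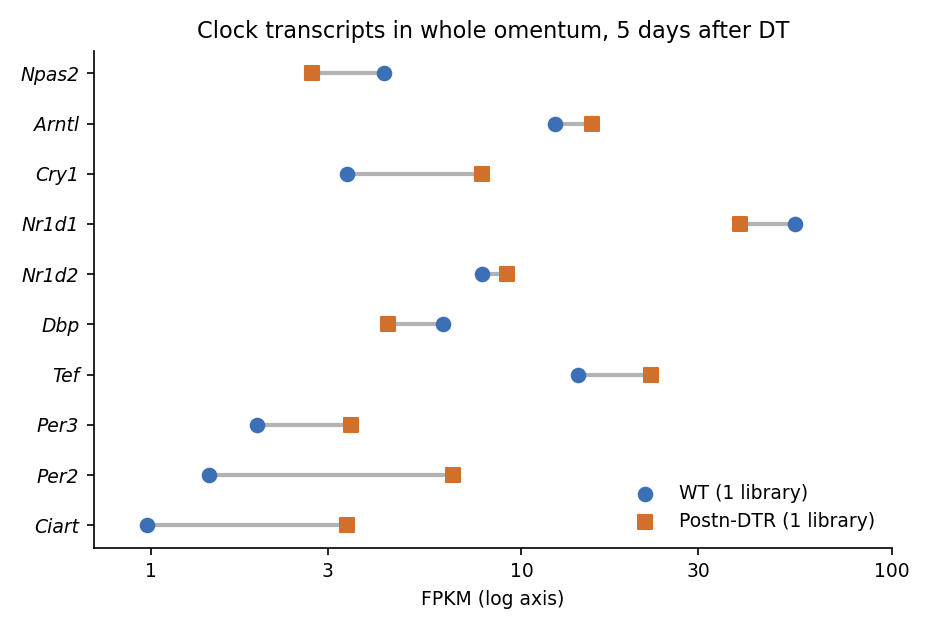
FPKM (log axis) of the 10 clock genes in the WT library (circles) and the Postn-DTR library (squares), 1 library each, with no error bars because there are no replicates. The widest gaps are those of Per2 (1.43 and 6.52) and Ciart (0.971 and 3.37), while Nr1d1, Dbp and Npas2 lie the other way.

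The levels themselves were modest. In WT they reached from 0.971 FPKM for Ciart to 54.8 for Nr1d1, a 56.4-fold span. In Postn-DTR they reached from 2.72 for Npas2 to 38.9 for Nr1d1, a 14.3-fold span. Nr1d1 was the most abundant of the 10 transcripts in both libraries and Tef and Arntl came next in both. Below these, the order differed. Per2 was ninth in WT, ahead of Ciart only, and sixth in Postn-DTR, ahead of Dbp, Per3, Ciart and Npas2. Because 7 of the 10 genes had a mean FPKM under 10, the background was also counted in that range, a choice made after seeing the data. Of the 5920 genes there, 3.48% were at least 2-fold higher.

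The activator genes did not share a direction. Arntl (ENSMUSG00000055116.8, chromosome 7, 113207465 to 113314126 on the plus strand, GRCm38), whose loss alone stops the loop, was measured at 12.3 FPKM in WT and at 15.5 FPKM in Postn-DTR. The ratio was 1.26 (95% interval 1.14 to 1.40), and the change of 0.32 became -0.0037 at equal totals, so it had no stable direction. In both settings Arntl was above the median of all genes (0.02 and -0.28). Npas2 (chromosome 1, 39193731 to 39363236, plus strand), the partner that can stand in for CLOCK, was measured at 4.26 FPKM in WT and at 2.72 FPKM in Postn-DTR, which was 1.57-fold lower (1.33 to 1.84). It stayed lower under all 6 alternatives in which it was compared. Clock itself, not among the 10, was at 6.15 and 5.84. Arntl2, a paralog of Arntl, was at 4.14 and 1.59, a change of -0.99 that ended just short of the threshold. It passed the threshold with each of the 3 other scalings, at -1.19 with equal totals. The Arntl to Npas2 ratio, which does not depend on how the libraries are scaled, went from 2.88 in WT to 5.71 in Postn-DTR.

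The REV-ERB genes differed from each other. Nr1d1 (chromosome 11, 98767932 to 98775333, minus strand) was measured at 54.8 FPKM in WT and at 38.9 FPKM in Postn-DTR, 1.41-fold lower (1.33 to 1.49), from about 3152 and 2316 estimated reads. Its 3′ end overlaps Thra on the other strand, which was at 41.5 and 34.3. The library kit kept strand, but it is not stated whether counting did, so the value of Nr1d1 is uncertain. Nr1d2 (chromosome 14, 18204054 to 18239127, minus strand) was measured at 7.81 and 9.15 FPKM, a ratio of 1.17 (1.06 to 1.29). Its change of 0.20 turned to -0.10 at equal totals, above the median of all genes in both settings (0.02 and -0.28). Among competitors of the REV-ERBs at ROREs, Rora was at 3.03 and 3.43, with a change of 0.14 that also turned at equal totals (-0.12). Rorb, at 0.0351 and 0.0731, was under the expression minimum.

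Promoter stretches of Ciart, Cry1, Per3 and Tef are shown, picked for the clock motifs they hold in the bases before the transcription start. These are the elements through which the loop is known to act. RefSeq (GRCm38.p6) windows from 250 bases before to 50 after each start were found for 9 of the 10 genes, Per2 being the other one. They were searched on both strands for the E-box CACGTG, the E′-box CACGTT, the D-box TTANGTAA and the RORE letters TAGGTCA or TGGGTCA. The E-box was in 3 of the 9 genes (Ciart, Cry1 and Tef), against 8.09% of 27025 genes with a window. The E′-box was in Cry1 and Nr1d1 (5.44% of all genes), the D-box in Per3 (2.72%) and the RORE letters in Arntl (7.35%), where TAGGTCA began 31 bases into the transcript of its second listed start. Such matches are descriptions of sequence, and no binding was measured here. The stretches below are written 5′ to 3′ on the gene's own strand and stop short of annotated exons, with motif letters in capitals. Ciart (chr3:95882252-95882478, minus strand) holds 3 E-boxes, which begin 116, 58 and 44 bases before its start. Cry1 (chr10:85185065-85185304, minus strand) holds an E-box 60 and an E′-box 79 bases before its start. Per3 (chr4:151044666-151044915, minus strand) holds D-boxes at 205 and 158 bases, and the second listed start of Tef (chr15:81811164-81811413, plus strand) an E-box at 138 bases. Not shown are an E′-box 28 bases before the start of Nr1d1 and an E-box 127 bases before the first listed start of Tef.
Ciart: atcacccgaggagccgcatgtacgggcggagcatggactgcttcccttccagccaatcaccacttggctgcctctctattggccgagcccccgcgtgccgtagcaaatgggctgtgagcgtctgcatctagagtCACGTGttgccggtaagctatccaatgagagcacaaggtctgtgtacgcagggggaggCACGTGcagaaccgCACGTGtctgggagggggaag
Cry1: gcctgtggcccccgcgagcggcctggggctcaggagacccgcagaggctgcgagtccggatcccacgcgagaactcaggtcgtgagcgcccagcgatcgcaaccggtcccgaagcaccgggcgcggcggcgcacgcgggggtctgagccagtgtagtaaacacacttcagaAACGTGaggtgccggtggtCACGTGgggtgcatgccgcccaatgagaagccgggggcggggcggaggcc
Per3: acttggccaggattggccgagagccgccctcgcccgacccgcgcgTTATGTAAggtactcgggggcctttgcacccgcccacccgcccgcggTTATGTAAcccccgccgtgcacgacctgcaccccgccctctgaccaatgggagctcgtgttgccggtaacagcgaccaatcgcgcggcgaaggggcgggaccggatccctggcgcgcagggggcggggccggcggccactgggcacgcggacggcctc
Tef: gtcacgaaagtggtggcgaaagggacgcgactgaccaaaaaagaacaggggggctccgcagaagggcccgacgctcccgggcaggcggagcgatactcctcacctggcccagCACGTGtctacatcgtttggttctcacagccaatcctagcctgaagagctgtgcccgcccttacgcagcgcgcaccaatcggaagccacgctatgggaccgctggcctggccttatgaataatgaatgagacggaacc

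The period genes were all higher in Postn-DTR, by unequal amounts. Per2 (chromosome 1, 91415982 to 91459324, minus strand), a core repressor that also responds quickly to hormonal cues, was measured at 1.43 FPKM in WT and at 6.52 FPKM in Postn-DTR. The ratio was 4.55 (3.87 to 5.35), from about 183 and 859 estimated reads, and the change of 1.63 was matched or exceeded by 1.46% of all genes compared. It was at least 2-fold higher under 5 of 6 alternatives, and with a pseudocount of 5 its change was 0.84. Per3 (chromosome 4, 151003652 to 151044665, minus strand), which is not required for the loop, was measured at 1.93 and 3.46 FPKM, a ratio of 1.79 (1.53 to 2.09), and a change of 0.60. Per1, not among the 10, was at 21.5 and 53.1, a change of 1.27. It made up most of the PER transcripts in both libraries, 86.4% of their summed FPKM in WT and 84.2% in Postn-DTR, and the sum was 24.8 and 63.1.

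Cry1 and Ciart were higher as well. Cry1 (chromosome 10, 85131700 to 85185064, minus strand), a core repressor of BMAL1 complexes, was measured at 3.37 FPKM in WT and at 7.83 FPKM in Postn-DTR, a ratio of 2.32 (1.98 to 2.73). Its change of 1.01 lay at the threshold, and it was under it with any of the 3 other scalings, at 0.72 with equal totals. Cry2 was at 11.2 and 15.2. Ciart (chromosome 3, 95878503 to 95882251, minus strand), also named Chrono, which binds BMAL1 and represses it, had the lowest WT level of the 10, 0.971 FPKM, and 3.37 in Postn-DTR. This was a ratio of 3.47 with a wide interval (2.25 to 5.54), because it rested on about 26.9 and 96.8 estimated reads. Its change was 1.15, and 0.89 at equal totals. Bhlhe40, encoding DEC1, a competitor of BMAL1 at E-boxes, was at 21.1 and 47.1, a change of 1.12, while its paralog Bhlhe41 was at 3.24 and 2.85.

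The genes of the PAR bZIP factors, which carry the rhythm to metabolic genes, did not move together. Dbp (chromosome 7, 45705088 to 45710203, plus strand) was measured at 6.13 FPKM in WT and at 4.36 FPKM in Postn-DTR, 1.41-fold lower (1.15 to 1.73). It shares exonic bases with Sphk2 on the other strand, at 16.3 and 19.0, and is uncertain for the same reason as Nr1d1. Arntl and Tef share exonic bases with opposite-strand genes too (Gm45355 and Gm17597, not analysed here), and the same limit holds for their values. Tef (chromosome 15, 81802421 to 81826863, plus strand) was measured at 14.2 and 22.3 FPKM, a ratio of 1.57 (1.46 to 1.68) and a change of 0.61. Hlf, their paralog outside the 10, was at 1.71 and 6.82, a change of 1.53. The summed FPKM of the 3 genes was 22.1 in WT and 33.5 in Postn-DTR. Nfil3, encoding E4BP4, which represses through the same D-boxes, was at 12.9 and 41.6, a change of 1.61.

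**Figure D2:**
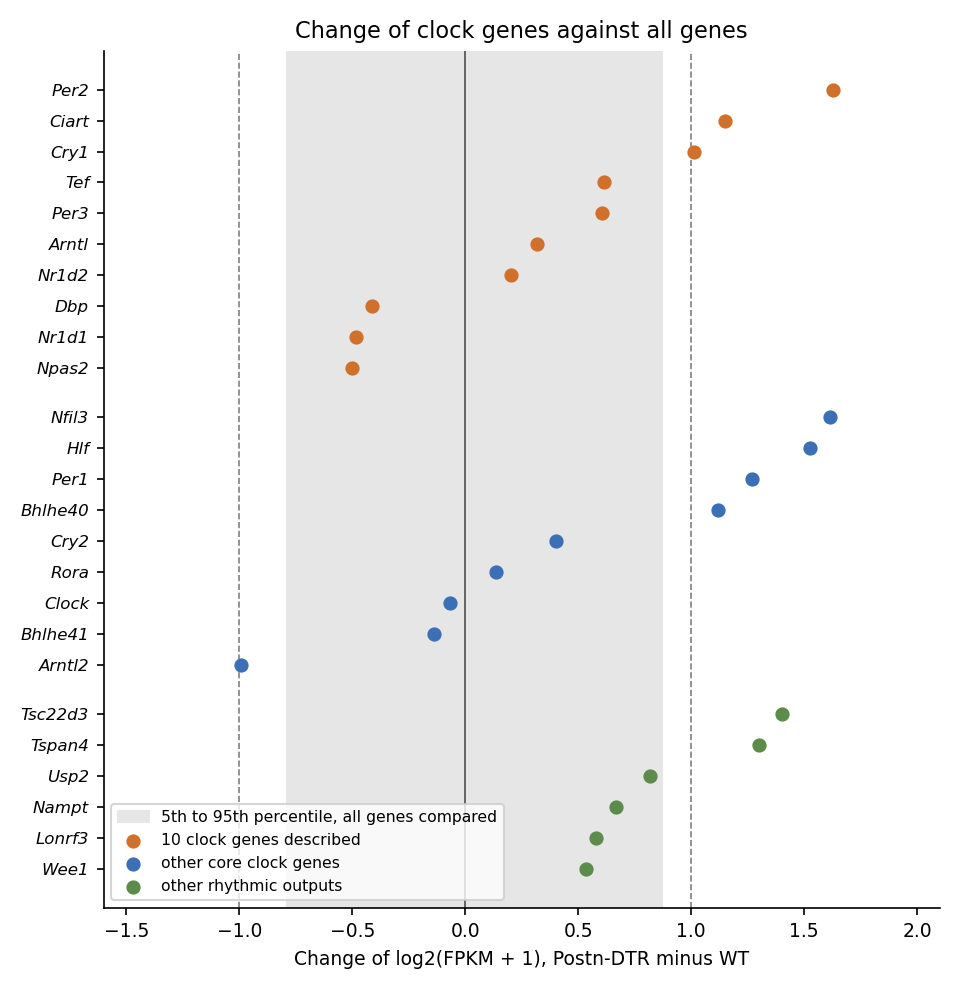
Change of log2(FPKM + 1) from WT to Postn-DTR for the 10 clock genes, the other core clock genes and other rhythmic outputs that were compared, 1 library per genotype. The grey band spans the 5th to 95th percentile of all 13127 genes (-0.79 to 0.87) and dashed lines mark 2-fold; 7 of the 19 core clock genes lie beyond the upper line and none beyond the lower.

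Over the 10 genes and 10 further core clock genes, 19 passed the expression minimum. Of these 7 (36.8%) were at least 2-fold higher, against 3.88% of all genes compared. At least 2-fold lower were 0, against 3.12%. The 4 outside the 10 were Nfil3, Hlf, Per1 and Bhlhe40. The 10 genes and the further list were chosen with earlier results of these data known, so these shares are descriptions and not independent support. Both counts depended on scaling. At equal totals Per2 (1.34), Nfil3 (1.28) and Hlf (1.23) stayed at least 2-fold higher, against 2.27% of all genes. Per1 (0.93), Ciart (0.89), Bhlhe40 (0.79) and Cry1 (0.72) fell below the threshold there. Arntl2 was at least 2-fold lower with each of the 3 other scalings. At the protein level the loop is timed by kinases and ubiquitin ligases that destroy PER and CRY. Of 9 of their genes 8 were compared and 0 reached 2-fold, against 3.88% higher and 3.12% lower among all genes. The median of the 8 was 0.18 and turned to -0.15 at equal totals. The most abundant were Csnk1d (46.6 and 54.0), Csnk2a1 (30.2 and 25.9) and Csnk1e (20.5 and 28.3). The change of Csnk1d was 0.21, and -0.13 at equal totals. Other outputs that cycle in many mouse tissues were all higher (6 of 6, median change 0.74), against 6811 of all 13127 genes compared. Of the 6 outputs 2 reached 2-fold, against 3.88% of all genes. Tsc22d3 was at 90.8 and 241.4 and Tspan4 at 43.8 and 109.1. Usp2 was at 4.19 and 8.15, Nampt at 18.6 and 30.1, Lonrf3 at 1.53 and 2.77, and Wee1 at 3.40 and 5.38.

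To read the state of the loop in each library, ratios between members were taken within a library, where scaling cancels. The RORE-driven genes (Arntl, Npas2 and Cry1) were set against the genes driven through E-boxes or D-boxes (the other 7). Arntl and Npas2 usually peak far from the second group in time of day. Cry1 peaks between them and is known to answer to both kinds of element. The groups drawn in this way did not separate here. Of 21 ratios of the first kind to the second, 8 were higher and 13 lower in Postn-DTR, and the median shift was -0.31 on the log2 scale. Most of the higher ratios were those of Cry1, every ratio of Npas2 was lower, and those of Arntl went both ways. The outcome thus depends on where Cry1 is placed. The median change was 0.32 for the first group and 0.60 for the second. Their difference of -0.29 was 0.25 when only genes averaging 10 FPKM or more were kept, which left Arntl, Nr1d1 and Tef. The members of the RORE group disagreed with each other. Against Nr1d1, Arntl went from 0.224 to 0.399 and Cry1 from 0.0615 to 0.201, but Npas2 from 0.0777 to 0.0699.

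The widest shift of all 45 pairs was that of Npas2 to Per2, from 2.98 in WT down to 0.418. Genes that share the E-box limb also moved apart. The ratio of Dbp to Per2 was 4.28 for WT and 0.669 for Postn-DTR, a 6.41-fold shift, and that of Nr1d1 to Per2 was 38.3 and 5.98. By contrast the ratio of Nr1d1 to Dbp was 8.94 in both libraries. Placed in the usual order of their peaks, Nr1d1 and Dbp, which peak in the light phase, were both lower in Postn-DTR, while Ciart, an E-box gene left out of that order, was higher. Genes of the light to dark transition were higher (Per3, Per2 and Tef) or had no stable direction (Nr1d2). Cry1, of the dark phase, was higher, and those of its end were lower (Npas2) or had no stable direction (Arntl). No hour can be assigned to a library from these values, because neither has a time series or a reference sample beside it.

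**Figure D3:**
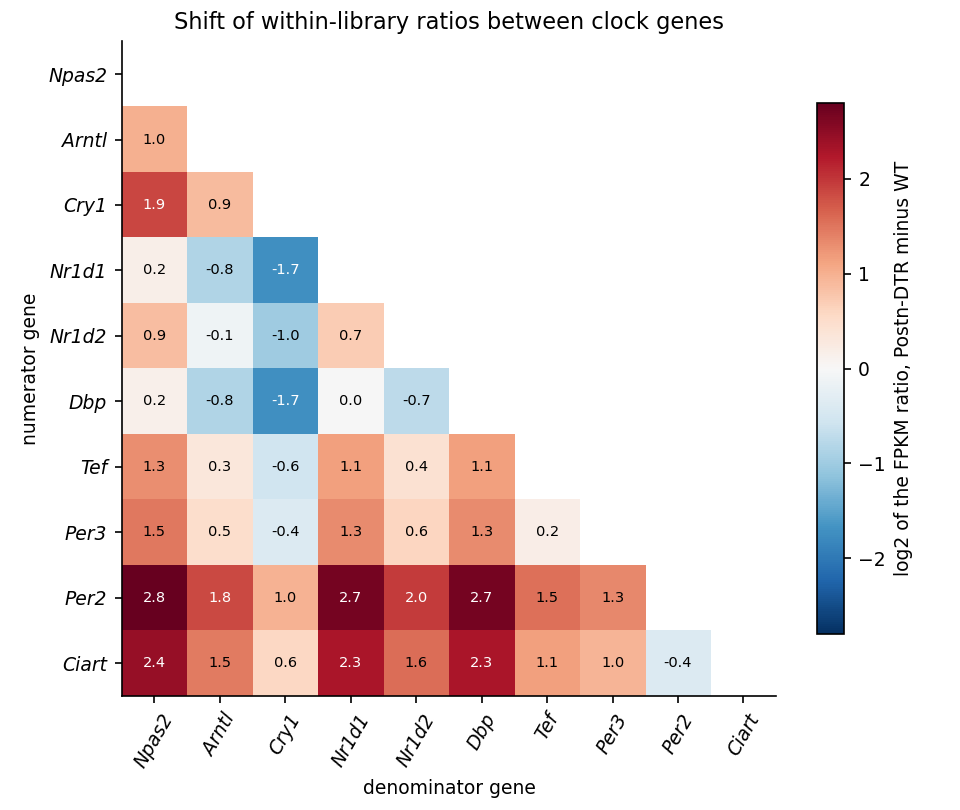
Shift of the FPKM ratio of each pair of clock genes (row gene over column gene) in log2 units from WT to Postn-DTR, so that values above 0 (red) mean a larger ratio in Postn-DTR. Rows Per2 and Ciart are mostly red, reaching 2.83 for Per2 over Npas2, and the square of Dbp against Nr1d1 is near 0.

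Other measures differed between the libraries beside the clock genes. Among all 13127 genes compared, 6811 were higher and 6316 lower in Postn-DTR, and 3.88% were at least 2-fold higher. For Postn, the targeted gene, the WT library held 58.3 FPKM and the Postn-DTR library 16.2. Glucocorticoid target genes, a list that holds Per1 and Tsc22d3, were all higher (8 of 8, 7 of them at least 2-fold), with a median of 1.33 and a summed FPKM of 302.0 and 924.5. The most abundant were Tsc22d3, Dusp1 (42.2 and 227.9) and Fkbp5 (43.8 and 148.0). Immediate early genes, which respond within minutes to stimuli, were higher in 7 of 7, with a median of 1.39 and sums of 129.5 and 531.6. Per1 and Per2 are known targets of the glucocorticoid receptor and of such stimuli, and the part of either response in the clock values was not tested.

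Marker genes of several cell types differed as well, and in whole tissue fewer cells of a type cannot be told apart from less RNA per cell. The counts below stand beside 6811 higher and 6316 lower among all 13127 genes compared. Adipocyte genes were lower in 8 of 10, with a median change of -0.57 and sums of 16171 and 14975. All 8 macrophage genes were higher, with a median of 1.14 and sums of 2911 and 4859. Neutrophil genes were higher in 5 of 7 (median 0.99, sums of 421.9 and 693.6). T cell genes were lower in 8 of 8 (-1.04, 89.2 and 38.6) and B cell genes in 7 of 7 (-0.75, 486.6 and 332.5). Medians were -0.31 for 6 fibroblast, 0.27 for 5 mesothelial, -0.13 for 5 endothelial and 0.22 for 4 smooth muscle genes, of which the mesothelial and smooth muscle medians turned to -0.062 and -0.12 at equal totals. Their sums were 3015 and 2954, 467.6 and 473.7, 220.8 and 214.0, and 256.8 and 284.1. All 23 pancreatic acinar genes compared were lower, with sums of 12357 and 21.6, of which 6 of the 25 listed were at 0 in a library. None of the other lists held a gene at 0. Clock transcripts are made in all these cell types, and the part of cell make-up in their values was not tested. The median of 7 housekeeping genes was 0.19, and -0.13 at equal totals.

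**Figure D4:**
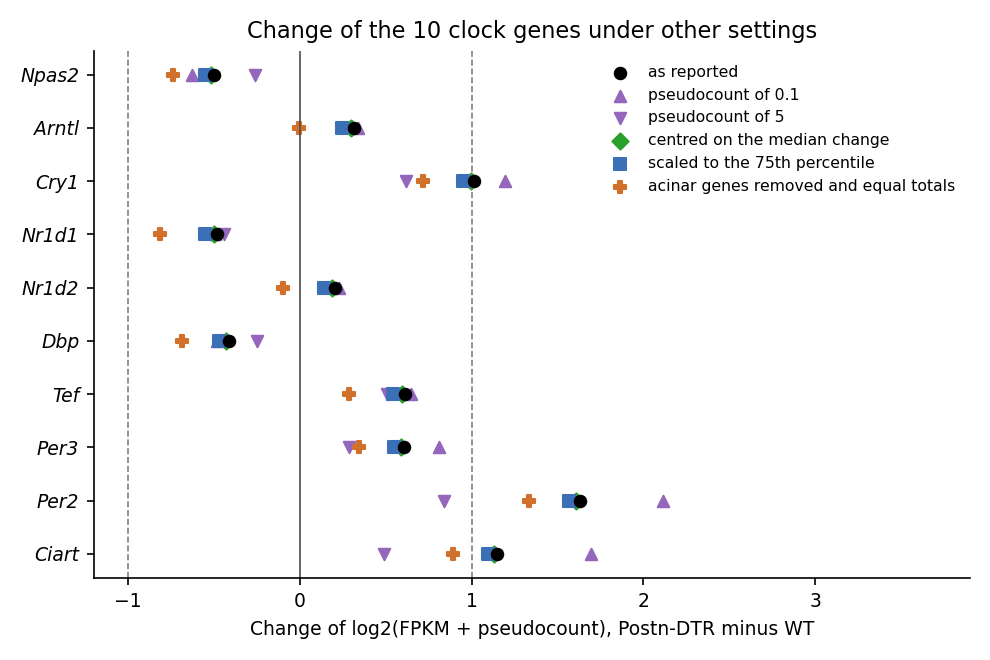
Change of each clock gene as reported (black) and under 5 other settings of pseudocount or scaling, with dashed lines at 2-fold. Arntl and Nr1d2 sit at or below 0 at equal totals, and Per2 stays beyond 2-fold except with a pseudocount of 5.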

How the data were processed

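Total RNA of whole omentum was extracted with a miRNeasy kit and made into stranded TruSeq mRNA libraries, 1 per genotype, grouped by their genotype labels. The authors deposited FPKM, 1 value per gene symbol and library. The submitters' processing notes name TopHat2 2.1.1, Bowtie2 2.2.8, SAMtools 0.1.18, Cuffdiff 2.2.1 and mm10; the annotation is not given in the sources used here. No test was possible. Changes of log2(FPKM + 1) were computed in Python 3.11.15 (pandas 2.3.3) for genes whose mean FPKM was 1 or more, and called at 2-fold. This step was checked on simulated data with counting noise only. Recovery of set changes was scored only in genes more abundant than Per2, Cry1 and Ciart were in WT. The check therefore says nothing of recovery at the level of these genes. The 10 genes and all lists were chosen with earlier results of these data known. All 10 members and the other core clock and output genes are named, and up to 3 of the most abundant genes of other lists; Thra, Sphk2 and the pairs with the widest or smallest shifts were named after their values were seen. Ly6g was not analysed here, and neither was 1 core clock gene that the lists leave out. Positions and lengths are from GENCODE M21 (GRCm38). Depth was estimated from low values: of 723 genes above 0 and under 0.1 FPKM in both libraries, the value in Postn-DTR was 0.967 times that in WT for 174, and for 76.8% the ratio was within 0.2% of 0.967 times a quotient of whole numbers up to 5. Genes with 1 transcript then gave FPKM denominators of about 22500000 (WT) and 23300000 fragments, with 165 bases taken off each length; 62.7% and 61.4% of 158 such genes were within 3% of 1 to 3 whole reads. Intervals are exact (Clopper-Pearson) on the 2 estimated read numbers. Alternatives were 2 other pseudocounts, no minimum or one of 10 FPKM, 3 scalings and 2 thresholds.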

Additional observations from a re-analysis of the deposited data

How the results depend on the processing

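With 1 library per genotype no replicate could be left out. No paired analysis was possible because each genotype has 1 library. The 3 clock genes at least 2-fold higher numbered 0 when the pseudocount was 5 or the minimum 10 FPKM (which keeps 3 of the 10), 1 when acinar genes were left out and totals made equal, 5 for a threshold of 1.5-fold and 1 for 3-fold; they were 2 (Per2 and Ciart) after centring and at the 75th percentile, and 3 with a pseudocount of 0.1 or no minimum. None was at least 2-fold lower under any of the 9 alternatives. Over all genes, in that order of settings, the 509 higher numbered 287, 303, 297, 1294 and 199, and the 410 lower numbered 168, 173, 738, 1160 and 153, with 643 lower for a pseudocount of 0.1. The genes compared were 7207 at the minimum of 10, 13104 at equal totals and 17969 with no minimum. Higher genes made up 2.19%, 4.2%, 2.27%, 9.86% and 1.52% of them in the same order, against 3.88%. Their share was 3.72% after centring, 3.44% at the 75th percentile, 4.89% with a pseudocount of 0.1 and 2.93% with no minimum. Lower genes made up 1.17% to 8.84% over the alternatives. A stricter filter or threshold lowers a count by construction. The difference of medians between RORE-driven and other members, -0.29, was -0.038 with a pseudocount of 5 and 0.25 at a minimum of 10, where 3 genes remained. The signs of Arntl (-0.0037) and Nr1d2 (-0.10) turned at equal totals; those of the other 8 members turned under no alternative in which they were compared. Depth limits Ciart most.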
